A study of Rattus norvegicus with 6 samples.

Results

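The potassium channel genes described here are the 88 genes of the rat annotation whose symbol starts with Kcn, leaving out the 4 genes of the G protein-gated inward rectifiers (Kcnj3, Kcnj5, Kcnj6 and Kcnj9), among 25629 genes counted in all. They were measured by single-nucleus RNA sequencing of nucleus accumbens (ventral striatum) tissue from adult Sprague-Dawley rats aged 90 to 120 days. All rats of both groups had taken heroin by self-administration for 7 days at 1 response per infusion and 4 days at 3 responses, then 1 progressive ratio test (day 12) and 2 more days at 3 responses (13 and 14). The 2 groups differ in the injection that followed, saline or the opioid receptor antagonist naloxone, given 1 h before death. The 12 animals, 6 of each sex, were combined into 6 libraries that each pooled both sexes, called saline replicates 1, 2 and 3 and naloxone replicates 4, 5 and 6. Rats without heroin were not analysed here, so both groups carry the same drug history and no value separates its part. The libraries are the replicates, and in the naloxone test of each class p-values measure the spread between these 6 libraries. Comparisons between classes, and of the naloxone change between classes, took library as a block. Their p-values measure the spread that remains once the mean differences between libraries are removed.

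Potassium channels let potassium ions leave or enter a cell and so set its resting potential, the shape of its action potentials and the interval between them. Voltage-gated channels (the Kcna, Kcnb, Kcnc, Kcnd, Kcnh and Kcnq families) open on depolarisation, and the modifier subunits (Kcnf, Kcng, Kcns and Kcnv) form channels only together with them. Calcium- or sodium-activated channels (Kcnma, Kcnn and Kcnt) open when these ions enter, inward rectifiers (Kcnj) hold the resting potential and buffer potassium in glia, and tandem-pore channels (Kcnk) carry leak currents. Auxiliary genes (Kcnab, Kcne, Kcnip, Kcnmb and Kcnrg) encode proteins that bind the pore subunits and change their gating or traffic. Striatal spiny neurons rest at very negative potentials held by inward rectifiers, and Kcnd channels carry an A-type current in them.

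Of the 88 members, 28 are voltage-gated, 10 are modifier subunits and 8 were grouped as calcium- or sodium-activated. Another 11 are inward rectifiers, 14 are tandem-pore channels and 17 are auxiliary. Kcnu1, outside the Kcnma, Kcnn and Kcnt families, was counted in the calcium- or sodium-activated group and was not tested between classes. Kcna7 had no UMI (unique molecular identifier, 1 counted molecule) in the classes described, and 7 members had fewer than 20 UMIs there in all. In the comparison of classes 60 members passed the filter on low counts and 28 did not.

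Nuclei were placed in classes by counting distinct marker genes, none of them a potassium channel gene, and a class is called "-like" for that reason. The 6 libraries held 55739350 to 76272798 UMIs, and 61609 of 64260 barcodes passed the filters, against 44592 nuclei given in the labels. Naloxone replicate 5 stood apart, with a median of 0.551% mitochondrial UMIs against 0.151% to 0.339% in the other libraries. Pairs of libraries shared 18 to 41 barcodes. Spiny neurons numbered 1974 (Drd1-like), 2834 (Drd2-like) and 4920 (Grm8-like), beside 177 cholinergic-like and 69 somatostatin-like interneurons, 3368 astrocyte-like, 11374 oligodendrocyte-like, 1938 oligodendrocyte precursor-like (OPC-like), 182 ependymal-like, 1563 microglia-like, 98 mural-like and 229 endothelial-like nuclei. A further 15496 spiny neurons had no subclass and 17337 nuclei no class, and neither entered the comparisons. Of the cholinergic-like nuclei 69.5% lay at or near the gate. At the limit of the gate that splits spiny neurons into subclasses lay 73.7% of Drd1-like, 59.8% of Drd2-like and 40.1% of Grm8-like nuclei. Levels are given in CPM, the usual unit of UMI counts scaled to the total of the class in each library. Median depth ran from 1150.5 UMIs per mural-like nucleus to 12376 per cholinergic-like nucleus. Some neuronal RNA was counted in glial classes, by amounts that differed between genes. The spiny neuron gene Penk stood at 165.9 CPM in Drd2-like neurons, 101.3 CPM in oligodendrocyte-like and 137.7 CPM in microglia-like nuclei, and the Drd2 gene at 564.8, 7.24 and 11.0 CPM. Whether this was free RNA was not tested, and a low level of a neuronal channel gene in glia was not read as expression.

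A few of the class-leading genes described below are shown by the 250 bases before their RefSeq start site (GRCr8, 5′ to 3′). They are Kcna6 in oligodendrocyte-like nuclei (chr4:161262353-161262602, minus strand), Kcnk13 in microglia-like nuclei (chr6:124971559-124971808, plus strand) and Kcnt2 in cholinergic-like neurons (chr13:54215057-54215306, plus strand). Each stood far above the next class by mean CPM, although the ratio of the means was larger for Kcnk9, Kcng4 and Kcng2. Capitals mark 4 motifs searched on both strands, ACAAAG (a SOX-type box), GGAAGT (an ETS core of the PU.1 type), GGGCGG (the core of the Sp1-type box) and the core promoter box TATAAA, none of which contains another.
Kcna6: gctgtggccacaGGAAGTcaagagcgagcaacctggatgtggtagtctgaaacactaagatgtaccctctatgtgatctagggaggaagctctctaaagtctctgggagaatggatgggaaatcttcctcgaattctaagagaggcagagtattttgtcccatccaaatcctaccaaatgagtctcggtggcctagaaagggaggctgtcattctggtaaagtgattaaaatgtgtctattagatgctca
Kcnk13: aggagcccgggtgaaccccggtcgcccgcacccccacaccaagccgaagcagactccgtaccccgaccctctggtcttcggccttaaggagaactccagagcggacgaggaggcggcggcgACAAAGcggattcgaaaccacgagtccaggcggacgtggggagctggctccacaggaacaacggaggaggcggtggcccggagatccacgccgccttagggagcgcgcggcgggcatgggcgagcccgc
Kcnt2: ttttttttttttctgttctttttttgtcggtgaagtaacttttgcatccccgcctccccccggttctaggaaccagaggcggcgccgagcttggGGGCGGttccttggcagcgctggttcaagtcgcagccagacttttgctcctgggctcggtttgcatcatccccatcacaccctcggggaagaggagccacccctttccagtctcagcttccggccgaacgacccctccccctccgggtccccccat
The Kcna6 window held 1 GGAAGT, 3 CpG dinucleotides and 45.6% G and C. The Kcnk13 window held 1 ACAAAG, 29 CpG and 69.6% G and C, and the Kcnt2 window 1 GGGCGG, 15 CpG and 59.2%. A promoter window was found for 60 of the 88 members, with a median of 11.5 CpG and 60.8% G and C, against 6 CpG and 52% over 27457 promoters. GGGCGG was present in 28 of the 60 (46.7%) and in 32.4% of all promoters, and TATAAA in 2 of the 60 (3.33%) and in 13.1% of all. GGAAGT was present in 18.3% of the members' windows and 19.5% of all, and ACAAAG in 8 of the 60 members' windows (13.3%) and in 4383 of all. A match is a description of letters and not a site.

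Neuronal classes held more transcript of most potassium channel genes that could be tested than glial and vascular classes did. In edgeR's quasi-likelihood test across the 4 neuronal classes (the 3 spiny classes and cholinergic-like) and 5 others with at least 20 nuclei in each library, 41 of the 88 members were higher in neuronal classes, 2 were lower, 17 passed neither way and 28 were not tested (adjusted p under 0.05 and a log2 difference of at least 1). Over all 13063 genes tested 17.6% were higher and 14.0% lower, and the median log2 difference was 1.86 over the 60 members tested and 0.02 over all genes. Members that passed the filter through the neurons alone had to differ, and without the filter the count was 43 of 87 members higher, against 13.9% of all genes, and 3 lower, against 8.89%. All 5 tested calcium- or sodium-activated members were higher in neurons, as were 7 of 8 tandem-pore, 17 of 24 voltage-gated, 5 of 7 modifier and 6 of 9 auxiliary members, but only 1 of 7 inward rectifiers. The test averages classes on the log scale, so Kcnk13, Kcng2 and Kcnip3 counted as neuronal although their mean CPM was higher over the other classes (96.1 against 26.4 CPM for Kcnk13), each through 1 glial class. For Kcng4 and Kcnc4, among the 17 that passed neither way, the test could not decide, since neither had a UMI in endothelial-like nuclei. Their mean CPM was 0.16 and 0.71 over the neuronal classes and 3.65 and 7.33 over the others.

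**Figure D1:**
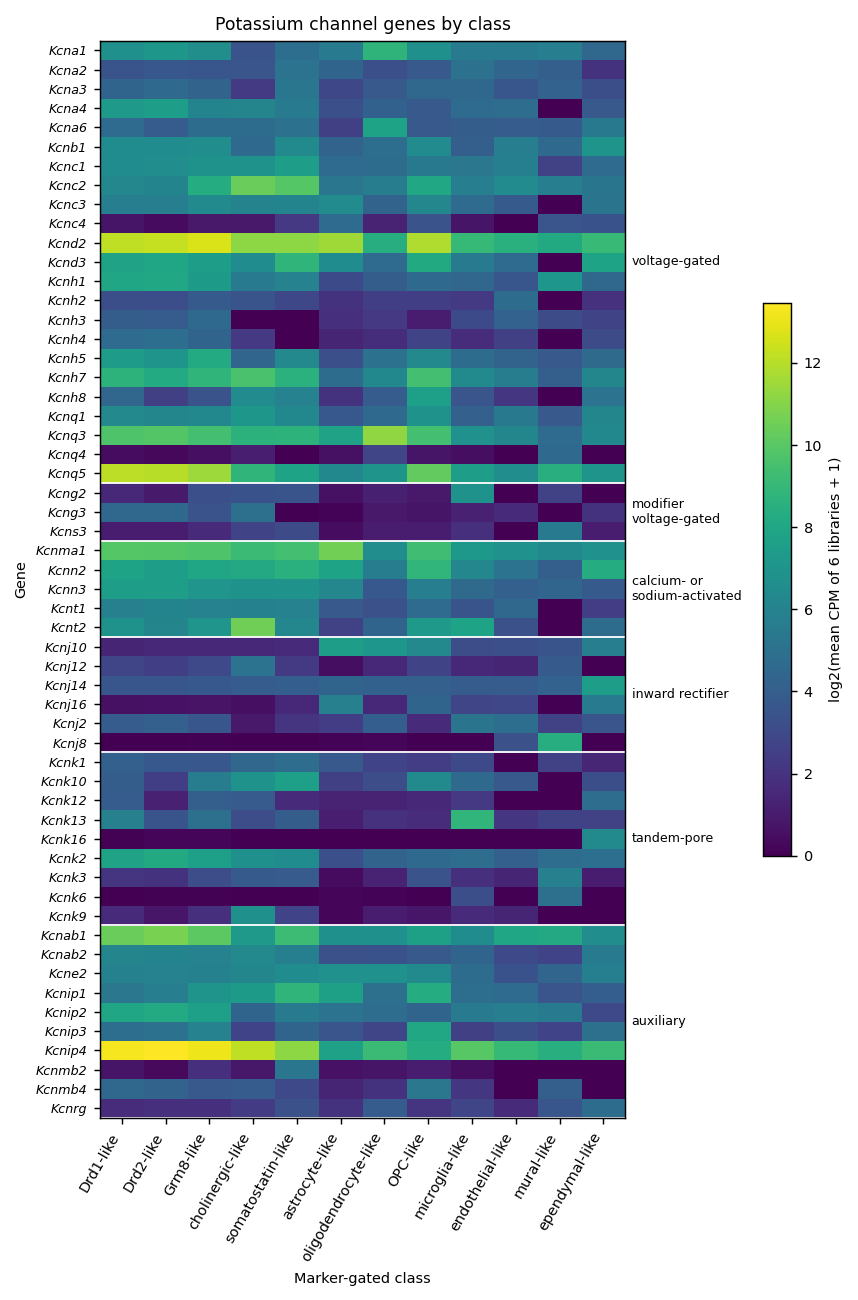
Mean level of each member that reached 20 CPM in at least 1 class, as log2 of CPM plus 1, with genes in rows grouped by role and the 12 marker-gated classes in columns. Kcnip4, Kcnd2 and Kcnq5 are brightest in the 3 spiny classes, and Kcnj8, Kcnk16, Kcnk13, Kcna6 and Kcnj14 each stand out in 1 class.

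Some of the most abundant members in spiny neurons, named after their values were seen, belong to the A-type and M-type currents. Kcnip4, which binds Kcnd channels, was at 10062 ± 988 CPM in Drd1-like, 11315 ± 981 in Drd2-like and 8884 ± 706 in Grm8-like neurons (SD, n = 6), so that the order by mean was Drd2-like, Drd1-like, Grm8-like. The Drd1-like range of 9007 to 11840 CPM overlapped both others, and the Drd2-like (10323 to 13046) and Grm8-like (8175 to 9929) ranges did not overlap. Kcnip4 passed no comparison between spiny classes in edgeR's quasi-likelihood test (adjusted p = 0.28 for Drd2-like against Grm8-like, 0.60 for Drd1-like against Grm8-like, 0.81 for Drd1-like against Drd2-like). In cholinergic-like neurons it was at 4684 ± 1289 CPM, below every spiny library. Its log2 difference between neuronal and other classes was 4.56 (SE 0.17, adjusted p = 2.7e-32). Kcnd2, a pore subunit of the A-type current, reached 6632 ± 438 CPM in Grm8-like, 4898 ± 371 in Drd2-like and 4708 ± 419 in Drd1-like neurons, and was also high in OPC-like (3690 ± 280 CPM) and astrocyte-like nuclei (2947 ± 435 CPM). Its differences between Grm8-like and Drd1-like or Drd2-like neurons did not pass in the same edgeR test (adjusted p = 0.26 and 0.39). Kcnq5, a subunit of the M current, was at 4501 ± 224 CPM in Drd1-like, 4184 ± 189 in Drd2-like and 2916 ± 252 in Grm8-like neurons, and at 1219 ± 97.4 CPM in OPC-like nuclei. The other glial and vascular classes were between 77.3 and 353.1 CPM for Kcnq5, and cholinergic-like neurons at 449.5 ± 92.6 CPM. Kcnma1, the large-conductance calcium-activated channel, was an exception to the neuronal pattern, with 1529 ± 125 CPM in astrocyte-like nuclei and 969 ± 43.3 CPM in Drd1-like neurons, although its neuronal log2 difference was 1.97 (SE 0.09, adjusted p = 1.2e-28).

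The 2 members lower in neurons were both inward rectifiers of glia. Kcnj10, the main potassium-buffering channel of astrocytes, differed by a log2 of -4.21 (SE 0.48, adjusted p = 1.9e-11) and Kcnj16, which assembles with it, by -3.44 (SE 0.89, adjusted p = 5.7e-04). Kcnj10 stood at 185.0 ± 18.5 CPM in astrocyte-like, 133.6 ± 15.2 in oligodendrocyte-like and 80.8 ± 14.3 in OPC-like nuclei, and at no more than 2.03 CPM on average in any neuronal class. Each call hung on a few UMIs in endothelial-like nuclei. Without saline replicate 2, the only library with a Kcnj10 UMI in that class, the log2 difference of Kcnj10 was -3.02 with an adjusted p of 1.0, and without saline replicate 1, the only one with a Kcnj16 UMI there, that of Kcnj16 was -2.21 with an adjusted p of 1.0. The lowest astrocyte-like library (166.4 CPM) lay above the highest oligodendrocyte-like one (148.7 CPM), which in turn lay wholly above the OPC-like range of 61.7 to 101.2 CPM.

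A member was taken to lead a class when it was higher there than in each of the other 8 classes, with a smallest log2 difference of at least 1 and an adjusted p under 0.05 for the weakest of the 8 contrasts. Of the 88 members 14 led a class, or 23.3% of the 60 in the fit, and over all 13063 genes in it 17.3% led one. OPC-like nuclei had 2 leading members, astrocyte-like nuclei 3, cholinergic-like neurons 4, microglia-like nuclei 2 and oligodendrocyte-like nuclei 3. No member led the Drd1-like, Drd2-like, Grm8-like or endothelial-like class, where 0.0459%, 0.0842%, 0.168% and 2.53% of all genes led. At 1.0 on the log2 scale the threshold lies between Kcnq3 in oligodendrocyte-like nuclei (1.00) just inside and Kcnip1 in OPC-like nuclei (0.81) just outside. In the same fits 3.35% of all genes led the oligodendrocyte-like class, 3.8% the astrocyte-like, 1.37% the OPC-like, 1.3% the cholinergic-like and 4.7% the microglia-like class.

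**Figure D2:**
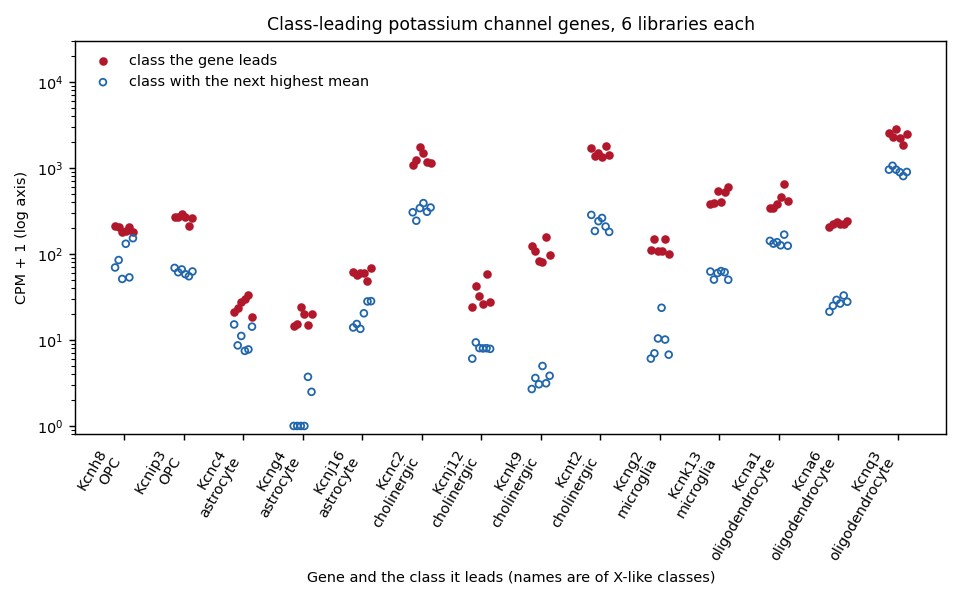
CPM plus 1 on a log axis in each of the 6 libraries for the 14 class-leading members, in the class each leads (filled points) and in the class with the next highest mean (open points). The filled points lie above the open points for every gene, and by the ratio of the means they are closest for Kcnh8 and Kcnc4 and farthest for Kcnk9.

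In oligodendrocyte-like nuclei the leading members were the shaker-type subunits Kcna1 and Kcna6 and the M-current subunit Kcnq3. Kcna6 was at 207.0, 223.9 and 234.8 CPM in saline replicates 1, 2 and 3 and at 220.1, 224.2 and 238.7 CPM in naloxone replicates 4, 5 and 6. Cholinergic-like neurons, next by their mean, held 20.3 to 31.8 CPM, and the highest single value in the other tested classes was 36.9 CPM in endothelial-like nuclei, from 4 UMIs in all libraries. The smallest log2 difference was 2.86 against Drd1-like neurons (adjusted p = 1.1e-15). Kcna6 had a UMI in 33.1% ± 5.40 of oligodendrocyte-like nuclei and in 20.4% ± 1.11 after each nucleus was thinned to 1000 UMIs, against 1.29% and 0.45% in astrocyte-like nuclei (SD, n = 6, median depths of 1725 and 2684.5 UMIs). Kcna1 was at 335.9 to 646.3 CPM there, above the 123.2 to 166.4 CPM of Drd2-like neurons, with a smallest log2 difference of 1.27 (adjusted p = 1.0e-12). Its highest value was in naloxone replicate 5. RefSeq lists Kcna1 and Kcna6 as neighbouring protein-coding genes, with Kcna5 on the other side of Kcna1. Kcna5 was too low for the comparison of classes.

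Kcnq3 reached 1825 to 2802 CPM in oligodendrocyte-like nuclei and 800.8 to 1057 CPM in Drd2-like neurons, but its smallest log2 difference of 1.00 was at the threshold (adjusted p = 4.2e-07). It fell below 1 in 5 settings, to 0.95 without saline replicate 3, 0.98 without saline replicate 1, 0.98 without naloxone replicate 6, 0.97 with at least 1000 genes per nucleus and 0.99 with the stricter gate. Its partner Kcnq5 showed the opposite order, at 124.2 ± 43.9 CPM in oligodendrocyte-like nuclei and 4184 ± 189 CPM in Drd2-like neurons.

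In astrocyte-like nuclei Kcnj16, Kcng4 and Kcnc4 led. Kcnj16 was at 60.7, 55.2 and 58.7 CPM in the saline and 58.2, 47.3 and 66.7 CPM in the naloxone libraries. OPC-like nuclei, the next class, held 12.5 to 27.2 CPM, and the smallest log2 difference was 1.51 (adjusted p = 1.1e-05). Kcng4, a modifier subunit, was low everywhere, at 17.2 ± 3.89 CPM in astrocyte-like nuclei and 0.70 CPM on average in microglia-like nuclei, the next class. Its smallest log2 difference of 4.72 passed (adjusted p = 0.01033), and without naloxone replicate 6 the adjusted p was 0.0833. Kcnc4, a fast-gating voltage-gated subunit, was at 24.8 ± 5.63 CPM against 9.73 CPM in OPC-like nuclei (log2 difference 1.24, adjusted p = 0.00144).

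In OPC-like nuclei, the precursors of oligodendrocytes, Kcnip3 and Kcnh8 led. Kcnip3, a calcium sensor that binds Kcnd channels and also acts as a transcriptional repressor, was at 267.3, 270.2 and 292.0 CPM in the saline libraries and at 265.8, 209.3 and 263.3 CPM in the naloxone libraries. The next class, Grm8-like neurons, held 54.0 to 67.7 CPM (smallest log2 difference 1.99, adjusted p = 1.3e-12), and oligodendrocyte-like nuclei 6.15 ± 2.43 CPM. Kcnh8, an Elk-type voltage-gated channel, was at 176.7 to 212.0 CPM against 50.1 to 151.2 CPM in cholinergic-like neurons, with a log2 difference of 1.07 (adjusted p = 8.1e-05). That difference was 0.97, 0.98 and 0.93 without saline replicate 1, saline replicate 3 and naloxone replicate 5. Among the 9 classes tested Kcnip1, Kcnn2 and Kcnmb4 were also highest in OPC-like nuclei, with smallest differences of 0.81, 0.73 and 0.63 that passed the test and not the size threshold. Kcnip1 was higher still in somatostatin-like neurons (446.4 ± 195.6 CPM), a class outside that test. It was at 2536 CPM in the few nuclei gated by the Pthlh marker list, pooled over the 6 libraries and also outside it.

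In microglia-like nuclei, the resident immune cells, the tandem-pore channel Kcnk13 and the modifier subunit Kcng2 led. Kcnk13 (THIK-1), the resting potassium conductance of microglia, was at 379.8, 385.0 and 538.4 CPM in the saline and at 400.1, 528.2 and 594.0 CPM in the naloxone libraries. Drd1-like neurons came next with 49.0 to 62.1 CPM (smallest log2 difference 2.44, adjusted p = 1.1e-16). A Kcnk13 UMI was found in 44.6% ± 7.37 of microglia-like nuclei and 36.4% ± 5.59 after thinning, which left out the 27.1% of them with under 1000 UMIs. In oligodendrocyte-like nuclei, of similar depth (medians of 1355 and 1725 UMIs), the shares were 0.50% and 0.23%. Kcng2 was at 98.5 to 149.9 CPM in microglia-like nuclei and 6.92 to 11.3 CPM in Grm8-like neurons, the nearest class in the fit (log2 difference 3.20, adjusted p = 6.2e-09).

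The cholinergic-like interneurons, large and tonically active cells, were led by Kcnt2, Kcnc2, Kcnk9 and Kcnj12. Kcnt2, a sodium-activated channel, was at 1684, 1380 and 1485 CPM in the saline and 1330, 1780 and 1393 CPM in the naloxone libraries. Microglia-like nuclei were next at 179.1 to 282.7 CPM, with a smallest log2 difference of 3.21 (adjusted p = 1.9e-24). A Kcnt2 UMI was present in 65.2% ± 6.04 of cholinergic-like nuclei thinned to 1000 UMIs (93.1% unthinned). The thinned share was 19.4% in microglia-like (24.2% unthinned), 13.3% in OPC-like (33.4%), 11.4% in Grm8-like (45.5%) and 0.90% in oligodendrocyte-like nuclei (2.13%). Kcnk9 (TASK-3), an acid-sensitive leak channel, was at 79.2 to 154.6 CPM and at 1.69 to 3.98 CPM in Grm8-like neurons (log2 difference 5.26, adjusted p = 4.9e-10). Kcnc2, of the channels that allow fast spiking, was at 1075 to 1758 CPM against 241.9 to 388.1 CPM in Grm8-like neurons (log2 difference 1.91, adjusted p = 2.6e-14). Kcnj12, an inward rectifier, was at 22.8 to 56.8 CPM against 5.06 to 8.36 CPM (log2 difference 2.18, adjusted p = 2.1e-04). The stricter gate left too few cholinergic-like nuclei to test these 4.

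A fit that added the 3 classes with 7 to 11 nuclei in their smallest library (somatostatin-like, mural-like and ependymal-like), chosen after the data were seen, placed 2 more members. Kcnj8, the pore of the vascular ATP-sensitive channel, led mural-like nuclei with 193.2, 570.6 and 201.0 CPM in the saline and 289.7, 692.0 and 56.4 CPM in the naloxone libraries, from 42 UMIs in 98 nuclei (log2 difference 4.69 against endothelial-like nuclei, adjusted p = 3.1e-07). Naloxone replicate 6 was the lowest and naloxone replicate 5 the highest. No Kcnj8 UMI was found in Drd1-like, Drd2-like, cholinergic-like, somatostatin-like, OPC-like, microglia-like or ependymal-like nuclei. Abcc9, the regulatory subunit of that channel and its neighbour in RefSeq, was at 1825 to 3599 CPM in mural-like nuclei. Kcnj14 led ependymal-like nuclei, the ciliated lining of the ventricle, with 81.5 to 265.2 CPM (log2 difference 2.75 against astrocyte-like nuclei, adjusted p = 5.5e-06). Kcnk16, too low for the filter, had 40 of its 48 UMIs in ependymal-like nuclei, at 110.5, 125.2 and 0 CPM in the saline and 81.5, 74.4 and 103.4 CPM in the naloxone libraries. In that fit 9 of the 14 members still led their class. Kcnc2 did not, being 0.80 above somatostatin-like neurons (971.0 CPM on average), nor did Kcnj16, 0.97 above ependymal-like nuclei, nor Kcnc4, Kcng4 and Kcnj12, whose adjusted p were 1.0, 0.24 and 0.39.

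No member led a spiny class, but 14 separated the 3 spiny classes from each other, in pairwise comparisons that were added after the data were seen. Drd1-like and Drd2-like neurons, of the direct and indirect pathway, differed in 5 of 60 members tested, all higher in Drd1-like neurons, where 1.6% of all genes were higher and 0.658% lower. Of these 5, 4 were tandem-pore channels. With no size threshold 16 members had an adjusted p under 0.05 in the same edgeR test, in both directions. The tandem-pore members Kcnk4 (log2 difference -0.96, adjusted p = 1.2e-04) and Kcnk2 (-0.46, adjusted p = 1.3e-05) were among those lower in Drd1-like neurons. Kcnk12 (THIK-2) was at 12.1 to 16.7 CPM in Drd1-like and 0.23 to 2.99 CPM in Drd2-like neurons (log2 difference 3.34, SE 0.20, adjusted p = 6.9e-20). Kcnk13, its closest relative, was at 49.0 to 62.1 against 7.14 to 12.2 CPM (2.39, SE 0.14, adjusted p = 3.5e-22). Its level in Drd1-like neurons, with a UMI in 32.9% ± 5.04 of nuclei, was above that of OPC-like nuclei of the same libraries, where 0.69% had one. Thinned to 1000 UMIs the shares were 5.04% and 0.23% (median depths of 9713 and 3264 UMIs). Kcnk10 (TREK-2) differed by 1.74 (SE 0.21, adjusted p = 2.7e-09), Kcnk9 by 1.41 (SE 0.38, adjusted p = 0.00794) at 0.91 to 3.12 against 0.45 to 1.30 CPM, and Kcnh8 by 2.15 (SE 0.25, adjusted p = 5.4e-10).

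**Figure D3:**
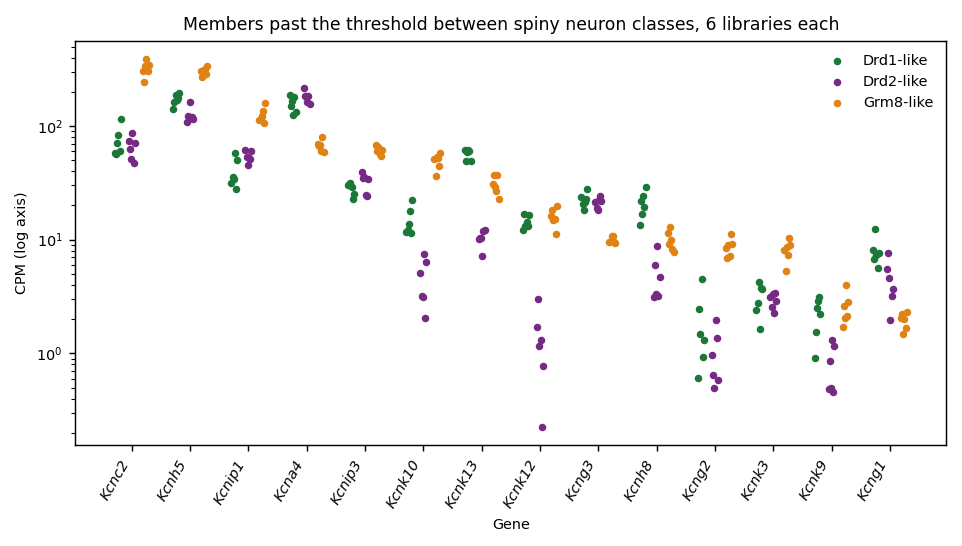
CPM on a log axis in each of the 6 libraries for the 14 members past the threshold between at least 1 pair of spiny neuron classes, ordered by their level in Grm8-like neurons. Kcnk12 and Kcnk13 are low in Drd2-like neurons, and Kcnc2, Kcnk10 and Kcng2 are highest in Grm8-like neurons.

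Grm8-like neurons, spiny neurons gated by a marker list that holds the glutamate receptor gene Grm8, differed from each of them in more members. Against Drd1-like neurons 6 members were higher in the Grm8-like class and 4 lower, beside 3.27% and 2.5% of all genes. Against Drd2-like neurons 9 were higher and 3 lower, beside 4.91% and 2.85%. Kcnc2 was at 241.9 to 388.1 CPM in Grm8-like, 57.0 to 114.8 in Drd1-like and 47.7 to 86.9 CPM in Drd2-like neurons, with log2 differences of -1.997 (Drd1-like minus Grm8-like, SE 0.15, adjusted p = 8.6e-17) and -2.17 (Drd2-like minus Grm8-like, SE 0.15, adjusted p = 1.2e-18). Kcnk10 was at 36.2 to 58.2 CPM, against 11.6 to 22.5 and 2.04 to 7.46 CPM. Kcng2, Kcnip1 and Kcnk3 were also higher than in both other classes. Kcna4, an A-type subunit, was lower, at 59.2 to 79.4 CPM against 124.2 to 187.2 CPM in Drd1-like and 157.4 to 215.3 CPM in Drd2-like neurons (log2 differences 1.32 and 1.56, Drd1-like or Drd2-like minus Grm8-like). The modifier subunits Kcng1 and Kcng3 were lower in Grm8-like neurons in both comparisons.

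At 1 h after naloxone 1 potassium channel gene passed the test, in 1 class. Over 9 classes 347 tests were made on 68 members, and the 1 with an adjusted p under 0.05 in edgeR's quasi-likelihood test was Kcnip1 in astrocyte-like nuclei, where 0.753% of 10621 genes were called. Adjustment was over all genes of a class. In the other classes 0 members were called, beside 0.284% of all genes in Drd2-like, 0.0158% in Grm8-like, 0.322% in oligodendrocyte-like, 0.288% in OPC-like, 0.0142% in microglia-like and 0.0% in Drd1-like, cholinergic-like and endothelial-like nuclei. At an unadjusted p under 0.05 the members numbered 7 of 53 in Drd1-like (9.74% of all genes there), 8 of 55 in Drd2-like (11.3%), 3 of 64 in Grm8-like (10.4%), 2 of 28 in cholinergic-like (4.84%), 8 of 35 in astrocyte-like (10.7%), 7 of 46 in oligodendrocyte-like (10.9%), 5 of 39 in OPC-like (8.39%), 0 of 24 in microglia-like (5.24%) and 2 of 3 in endothelial-like nuclei (7.83%). The median log2 change of the members tested lay between -0.07 (Drd2-like) and 0.16 (oligodendrocyte-like) in all classes but the endothelial-like, against medians within 0.01 of 0 over all genes. DESeq2 also called 1 member, Kcnip1 in astrocyte-like nuclei (adjusted p = 0.00239). With no filter on low counts 10 of 673 tests of members were called (1.49%), beside 0.938% of all tests in the 9 classes. In endothelial-like nuclei they were Kcnip4, Kcnd2 and Kcnc2. In astrocyte-like nuclei they were Kcnip1, Kcna1 (adjusted p = 6.7e-08 in edgeR), Kcnk1 (0.00589) and Kcnip3 (0.0177). The others were Kcna1 in oligodendrocyte-like nuclei, Kcnip4 in OPC-like nuclei and Kcnc2 in Drd1-like neurons (log2 change 0.50, adjusted p = 0.00515, and 0.42 with the filter, overlapping groups). Without naloxone replicate 5 Kcnip2 was called in Grm8-like neurons (log2 change -0.40, adjusted p = 0.0441, and -0.21 with an adjusted p of 0.57 in all libraries). Kcnip4 in OPC-like nuclei (log2 change 0.47, SE 0.15, adjusted p = 0.28 with the filter, overlapping groups) was also called with the stricter gate (adjusted p = 0.0215) and without naloxone replicate 4 (0.0205). The 2 endothelial-like members, Kcnd2 and Kcnip4, had changes of 1.93 and 2.09 on 20 to 64 nuclei per library with overlapping groups.

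**Figure D4:**
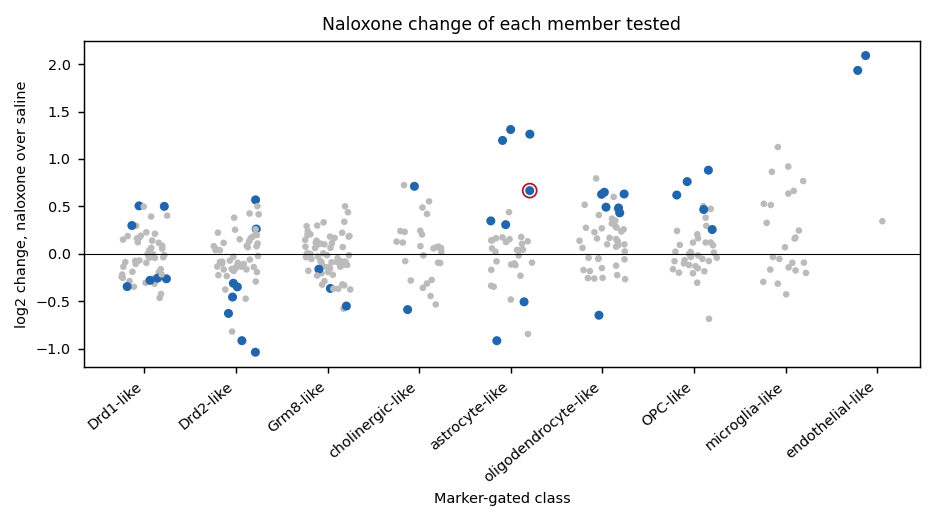
Log2 change of each member, naloxone over saline, in each of the 9 classes tested. Blue points have an unadjusted p under 0.05, grey points do not, and the ring marks the 1 member with an adjusted p under 0.05, Kcnip1 in astrocyte-like nuclei.

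Kcnip1 encodes a calcium-binding protein that assembles with Kcnd channels. In astrocyte-like nuclei it was at 127.4, 157.3 and 187.1 CPM in saline replicates 1, 2 and 3 and at 229.3, 289.5 and 224.2 CPM in naloxone replicates 4, 5 and 6. All 3 naloxone libraries lay above all 3 saline libraries, with the highest in naloxone replicate 5. The log2 change was 0.67 (SE 0.13, adjusted p = 0.0306). The call was lost without saline replicate 1 (adjusted p = 0.130), 2 (0.101) or 3 (0.0527) and without naloxone replicate 5 (0.0798) or 6 (0.0510), where the log2 change was 0.55 to 0.81, and with adjustment over all classes together (0.0675). Without naloxone replicate 4 the adjusted p was 0.04998. Beside it, the summed OPC marker genes (7 of 7 detected) stood at 122.1 to 142.3 CPM in the saline and 161.5 to 173.9 CPM in the naloxone libraries of astrocyte-like nuclei, against 4611 to 5165 CPM in OPC-like nuclei, where Kcnip1 was at 328.3 ± 55.8 CPM. The astrocyte markers themselves stood at 6335 to 6522 and 7245 to 7976 CPM, and the microglia markers at 102.1 to 113.4 and 117.5 to 145.9 CPM. The Grm8-class markers were lower, at 117.2 to 160.3 in saline and 79.2 to 113.4 CPM in naloxone libraries, as were the endothelial markers at 11.0 to 15.1 and 6.52 to 10.3 CPM, and the somatostatin markers were at 10.8 to 20.1 and 22.4 to 24.0 CPM. The other lists overlapped between groups. The part of these marker levels in the Kcnip1 result was not tested. In the other classes, which come from the same 6 libraries, the log2 change of Kcnip1 was 0.43 (SE 0.15, adjusted p = 0.33, groups not overlapping) in oligodendrocyte-like, 0.26 (0.12, 0.55) in OPC-like, 0.71 (0.31, 0.97) in cholinergic-like, 0.86 (0.42, 0.92) in microglia-like, 0.40 (0.20, 0.55) in Drd1-like, 0.18 (0.12, 0.64) in Grm8-like and 0.07 (0.13, 0.89) in Drd2-like nuclei.

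**Figure D5:**
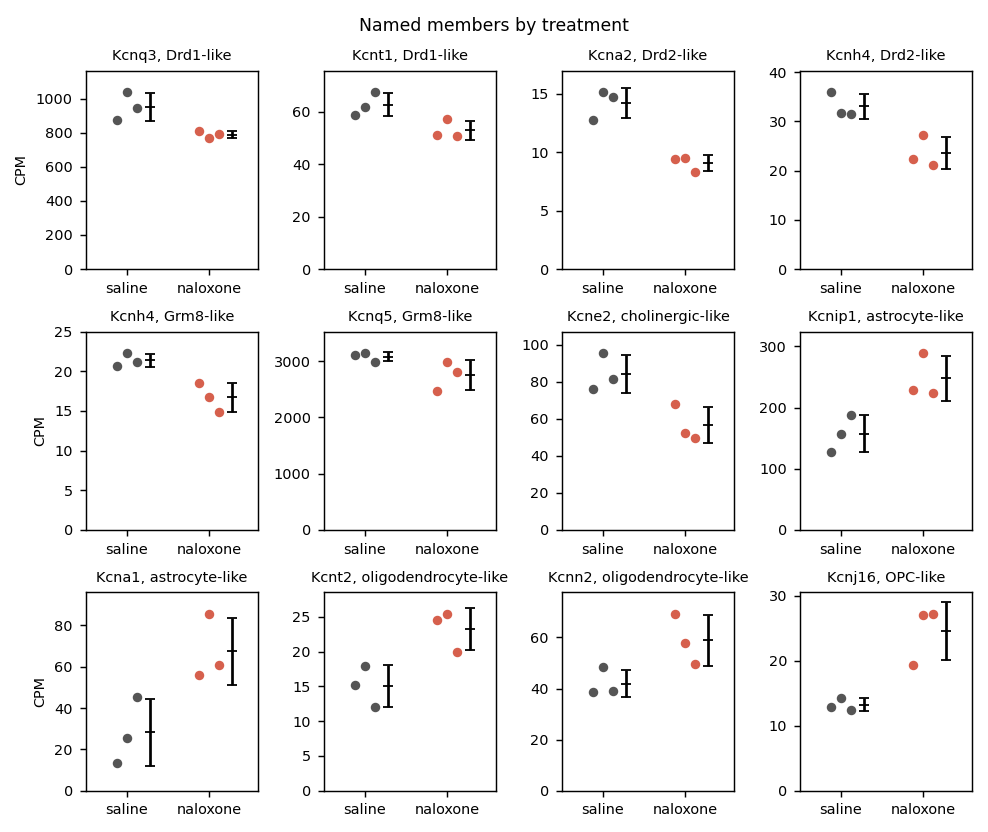
CPM of the named members in the 3 saline (grey) and 3 naloxone (red) libraries of the class given above each panel, with the mean and SD of the 3 beside the points. The groups do not overlap in any panel by the rule that chose them, and only Kcnip1 in astrocyte-like nuclei passed the adjusted threshold.

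Other members of astrocyte-like nuclei stood apart between groups without passing when the filter on low counts was used. Kcna1 and Kcnk1 were called there only in other settings, both with no filter on low counts. Kcna1 was at 13.5, 25.7 and 45.3 CPM in the saline and 55.8, 85.6 and 60.6 CPM in the naloxone libraries, with a log2 change of 1.20 (SE 0.28, adjusted p = 0.0639). Without saline replicate 3 its adjusted p was 0.0380. Kcna1 led the oligodendrocyte-like class, and there too the groups did not overlap, at 342.5, 335.9 and 380.8 against 453.3, 646.3 and 413.9 CPM (log2 change 0.49, SE 0.14, adjusted p = 0.24). The 10 oligodendrocyte markers summed to 315.5 to 379.3 CPM in saline and 352.4 to 470.7 CPM in naloxone astrocyte-like nuclei, against 9181 to 10584 CPM in oligodendrocyte-like nuclei. Their part in the Kcna1 value was not tested. Kcnk1 (TWIK-1), a leak channel, was at 6.75, 5.02 and 9.28 CPM against 18.6, 22.8 and 12.1 CPM (log2 change 1.31, SE 0.33, adjusted p = 0.0968).

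In spiny neurons no member passed. At an unadjusted p under 0.05 there were 3 higher and 4 lower after naloxone in Drd1-like, 2 higher and 6 lower in Drd2-like, and 0 higher and 3 lower in Grm8-like neurons. Kcnh4, an Elk-type voltage-gated channel, was at 36.0, 31.6 and 31.6 CPM in the saline and 22.4, 27.2 and 21.1 CPM in the naloxone libraries of Drd2-like neurons (log2 change -0.46, SE 0.13, adjusted p = 0.21). In Grm8-like neurons it was at 20.6, 22.3 and 21.1 against 18.5, 16.8 and 14.8 CPM (-0.37, SE 0.13, adjusted p = 0.34), and in Drd1-like neurons the change was -0.35 with overlapping groups (SE 0.16, adjusted p = 0.50). The 3 classes share the libraries. Kcna2, a delayed rectifier subunit, was at 12.8, 15.2 and 14.7 against 9.41, 9.53 and 8.33 CPM in Drd2-like neurons (-0.63, SE 0.18, adjusted p = 0.19). Kcnq3 in Drd1-like neurons was at 874.3, 1040 and 945.6 against 809.5, 768.9 and 790.3 CPM (-0.28, SE 0.08, adjusted p = 0.34). Some were higher, such as, named after their values were seen, Kcnk1 in Drd2-like neurons, at 8.46, 10.7 and 10.6 against 14.6, 16.3 and 12.8 CPM (0.57, SE 0.18, adjusted p = 0.25). Kcnt1 in Drd1-like neurons (-0.26) and Kcnq5 in Grm8-like neurons (-0.16) had adjusted p of 0.45 and 0.46. The naloxone change differed between Drd1-like and Drd2-like neurons in 0 of 57 members tested by the class by treatment term in edgeR. The smallest adjusted p was 0.32, while 0.282% of 12043 genes passed. The smallest p was that of Kcnh5, with a difference of 0.27 in the log2 change (SE 0.09). Next by p were Kcnk1 (-0.66, SE 0.22), Kcnk12 (1.41, SE 0.54) and Kcne2 (0.29, SE 0.13), named after their values were seen.

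In the remaining classes no member passed. Kcnj16 in OPC-like nuclei was at 13.0, 14.3 and 12.5 CPM in the saline and 19.4, 27.0 and 27.2 CPM in the naloxone libraries (log2 change 0.88, SE 0.28, adjusted p = 0.28). Astrocyte markers summed to 270.8 to 398.2 CPM in saline and 336.2 to 488.1 CPM in naloxone OPC-like nuclei, and their part was not tested. Kcnt2 and Kcnn2 in oligodendrocyte-like nuclei had changes of 0.63 (SE 0.18) and 0.48 (SE 0.14), both with an adjusted p of 0.24. In oligodendrocyte-like nuclei the microglia markers summed to 124.0 to 159.9 CPM in saline and 164.9 to 193.5 CPM in naloxone libraries, and Kcnt2 was at 225.3 CPM in microglia-like nuclei. The oligodendrocyte markers stood at 9181 to 10075 and 10189 to 10584 CPM and the somatostatin markers at 23.0 to 24.6 and 36.9 to 46.8 CPM. The other lists overlapped between groups there. The part of these marker levels in the Kcnt2 value was not tested. Kcne2, an accessory subunit of several voltage-gated channels, was at 76.1, 95.8 and 81.5 against 67.9, 52.3 and 49.8 CPM in cholinergic-like neurons (-0.59, SE 0.23, adjusted p = 0.97).

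Genes that work with potassium channels were described from 4 lists. Over all 13063 genes in the same fit 17.6% were higher in neuronal classes, 14.0% were lower and 17.3% led a class. Of 12 partner subunits in the files, 8 could be tested between classes, and 7 of these were higher in neurons and none lower. Among them were Dpp6 (log2 difference 2.51) and Dpp10 (2.50), which join Kcnd channels. Dpp6 was nevertheless highest in OPC-like nuclei, at a mean of 2773 CPM against 1486 to 2558 CPM in the 4 neuronal classes tested. Dpp10 was at 1747 CPM in OPC-like nuclei, above the 3 spiny classes (1073 to 1607 CPM) and below cholinergic-like neurons (2014 CPM). Of the 4 HCN pacemaker channels, 3 were tested and 2 were higher in neurons. Of the 7 sodium-potassium pump subunits, 6 were tested, with 1 higher in neurons and 2 lower. Atp1b2 was lower (-2.28) and led astrocyte-like nuclei at 416.6 CPM. Atp1b3 led cholinergic-like neurons at 220.4 CPM. Of the 5 cation-chloride cotransporters tested, Slc12a5, the neuronal potassium-chloride exporter, was higher in neurons (1.88) and Slc12a4 and Slc12a7 lower, and Slc12a2 led oligodendrocyte-like nuclei at 583.2 CPM. Over 144 naloxone tests of these genes none passed in edgeR, and 21 (14.6%) had an unadjusted p under 0.05, beside 9.45% of all tests in the 9 classes. Atp1b1, a pump subunit, had the smallest adjusted p, 0.0832 in astrocyte-like nuclei (log2 change 0.54, SE 0.13). DESeq2 called 2 of the tests, Atp1b1 in astrocyte-like (adjusted p = 0.0278) and in oligodendrocyte-like nuclei (log2 change 0.43, adjusted p = 0.0428).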

How the data were processed

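Each of the 6 libraries was deposited as a matrix of raw UMI counts per gene and nucleus, made with Cell Ranger 9.0.1 on the rat build mRatBN7.2, per the file headers and the submitters' processing notes, which also name Seurat 5.2.1 and R 4.4.0. The deposited counts were not normalized. The labels give 6 libraries from 12 rats and not which rats went into which.

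The members, gene lists and marker lists were chosen with earlier results of these data known. Barcodes entered with 500 or more genes detected and no more than 5% of UMIs from mitochondrial genes. A class needed at least 3 distinct markers of its list, a detected share of the list at least 0.2 above that of every other list, and no other list above 0.4, and a spiny subclass at least 2 own markers and 2 more than any other subclass. No doublet caller was run, and the gate leaves out nuclei with markers of several classes. The authors' annotation was not used here.

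Counts were summed per library and class, for classes with at least 20 nuclei in every library, and tested with edgeR 4.0.16 (quasi-likelihood, TMM, filterByExpr, Benjamini-Hochberg over all genes, threshold 0.05) in R 4.3.3, with DESeq2 1.42.0 as an alternative. CPM was computed from the class sums. The genes named were each member called for naloxone, each member leading a class, up to 2 members per class with the smallest unadjusted p whose groups did not overlap, and family members that place them. On simulated counts for the real genes the naloxone test recovered 62.3% (endothelial-like, 1171 genes) to 85.7% (Drd1-like, 11096 genes) of genes changed by a log2 of 1, the leading-gene test 67.4% of genes changed by 2 in oligodendrocyte-like nuclei (11747 genes), and the difference of the naloxone change 36.2% at 1 (13018 genes). The simulation gave every gene and class the same fixed dispersion and no difference between libraries beyond depth. These shares therefore hold for that setting, and recovery on the real counts was not measured. Intervals cover counting error only. Values of some genes of the other lists are not reported here.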

Additional observations from a re-analysis of the deposited data

Results flagged for a closer look

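Kcnip3 in OPC-like nuclei of naloxone replicate 5 stood at 209.3 CPM, below the other 5 libraries, which lay between 263.3 and 292.0 CPM. The gap to the nearest library was 0.653 of the whole range, above Dixon's 95% critical value for 6 samples. This was 1 of 18 gene and class pairs checked, and chance alone passes this limit in about 1 in 20 groups. Naloxone replicate 5 was also the library with the highest mitochondrial share (median 0.551%), and the part of that in the Kcnip3 value was not tested.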

How the results depend on the processing

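The number of members called for naloxone was 1 as reported, 1 with RLE size factors, with at least 1000 genes per nucleus and with DESeq2, 10 with no filter on low counts, 2 with the stricter gate, 0 with adjustment over all classes together, and 0 to 2 with each library left out. The members lower in neurons numbered 2, 1 with at least 7 nuclei per library (chosen after seeing the data), and 1 to 2 with each library left out. In these 3 cases Kcnj10 or Kcnj16 had no UMI left in a vascular class. The leading members numbered 10 to 14, or 21 with no minimum size of the difference, and those higher in neurons 35 to 47 over all settings, and no difference of the naloxone change between Drd1-like and Drd2-like neurons was called in any setting run. The 3 comparisons between spiny classes, added after seeing the data, gave 5 to 6 (Drd1-like against Drd2-like), 8 to 12 (Drd1-like against Grm8-like) and 11 to 14 (Drd2-like against Grm8-like) members past the threshold. No named change or lead reversed. No paired analysis was possible because the saline libraries are numbered 1 to 3 and the naloxone libraries 4 to 6, so the groups share no replicate number. Depth limits the small classes most, with 20 to 64 endothelial-like nuclei per library.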

Other observations

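Interneuron-like nuclei gated by the Pthlh marker list were too few to test, with 45 nuclei in all and 4 to 11 per library, of which 93.3% lay at or near the gate. Pooled over the 6 libraries, their potassium channel profile was led by Kcnip1 at 2536 CPM (exact Poisson 95% interval 2378 to 2702), Kcnab1 at 2082 CPM (1939 to 2233) and Kcnc2, a subunit of fast-spiking channels, at 1796 CPM (1663 to 1937). Kcnt2, which led the cholinergic-like interneurons, stood at 15.9 CPM there (5.84 to 34.6). The intervals cover counting error only, and these genes were picked after their values were seen.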
